A study of Mus musculus with 4 samples.

Results

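The cell has to dispose of its mRNAs as well as translate them, and the 38 genes described here encode the factors that do so. They were chosen by name from the 53465 genes of the count table, by a rule that reads no measured value, although with earlier results of these data known, and fall into 6 roles. There are 9 factors of nonsense-mediated decay (NMD), 10 subunits of the CCR4-NOT deadenylase complex, 3 other deadenylase genes, 9 genes of decapping and 5′ to 3′ decay, 4 BTG/TOB adaptors and 3 subunits of the SKI complex. All 38 had enough counts to be tested.

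In the general pathway, CCR4-NOT and PAN2-PAN3 shorten the poly(A) tail, the DCP1-DCP2 enzyme then removes the cap, and XRN1 degrades the body from its 5′ end, while the RNA exosome, fed by the SKI complex, degrades from the 3′ end. NMD is a surveillance pathway in which the helicase UPF1, phosphorylated by SMG1, marks mRNAs whose translation ended prematurely. Decay and translation are coupled, because NMD needs a terminating ribosome and because, in yeast, slow ribosomes recruit CCR4-NOT.

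The mRNAs came from STHdh cells, immortalized striatal lines of the mouse strain given as C57/BL6. Control cells (STHdhQ7/Q7) express a knock-in Htt exon 1 with a short wild-type glutamine repeat, and HD-homo cells (STHdhQ111/Q111) a knock-in exon with an expanded mutant repeat. In both groups harringtonine stopped new initiation, elongating ribosomes were left to run off for a short time, and the RNA still present in polysome fractions was sequenced (PS-RRA-mRNA-Seq) in 2 libraries per group, described as independent experiments. Each group is a single line, and what the longer repeat does cannot be told apart from anything else in which the 2 lines differ. A level is therefore the amount of an mRNA in polysomes after run-off, and it was not divided by the amount in the cell. Fewer cells of a kind and less RNA per cell cannot be told apart either.

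The counts summed to between 12372090 and 15472808 per library. Levels are given in CPM, the count of a gene relative to the library total after TMM (trimmed mean of M-values) scaling, always in the order control replicate 1, control replicate 2, HD-homo replicate 1 and HD-homo replicate 2. The groups were compared with edgeR's quasi-likelihood test over 12961 genes, and a gene is called higher or lower in HD-homo at a Benjamini-Hochberg adjusted p under 0.05. With 2 libraries a side, the smallest two-sided p of an exact permutation test is 0.333, so the edgeR test leans on the spread shared across genes. Htt had 383, 429, 115 and 57 counts and was lower in HD-homo (log2 fold change -2.08, standard error 0.32, adjusted p = 3.24e-04, edgeR), and a gene count does not read the repeat itself. The 10 striatal projection neuron markers summed to between 3.42 and 7.81 CPM per library, and 3 of them, including Drd1 and Drd2, were at 0 counts in all 4 libraries. In every library 7 of the 10 had under 10 counts. Of the 3 tested, Ppp1r1b was called higher (4, 4, 14 and 20 counts), Adora2a lower (45, 26, 7 and 3 counts) and Penk was not called. Of all genes tested, 10.4% were called higher and 10.9% lower.

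Most of the decay genes were at levels less than 2-fold apart in the polysomes of the 2 lines. Of the 38 genes, 0 were called higher and 1, Tob1, was called lower, against 10.4% higher and 10.9% lower of all 12961 genes tested with edgeR. At an unadjusted p under 0.05, 1 gene was higher (Smg6) and 3 were lower (Tob1, Tob2 and Skiv2l), against 14.8% higher and 15.9% lower of all genes. DESeq2 and limma-voom also called 0 higher and called Tob1 alone lower. The median log2 fold change of the 38 was -0.07 and that of all genes tested was 0.00. The median size of the change, without its sign, was 0.16 for the 38 and 0.34 for all genes. For 31 of the 38 (81.6%) the 95% interval lay within a 2-fold change in either direction, which held for 55.9% of all genes. The exceptions were Tob1, Smg6, Smg9, Skiv2l, Ttc37, Edc4 and Dcp1b. The 38 were not matched for level with all genes tested, and the width of an interval depends on the counts.

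**Figure D1:**
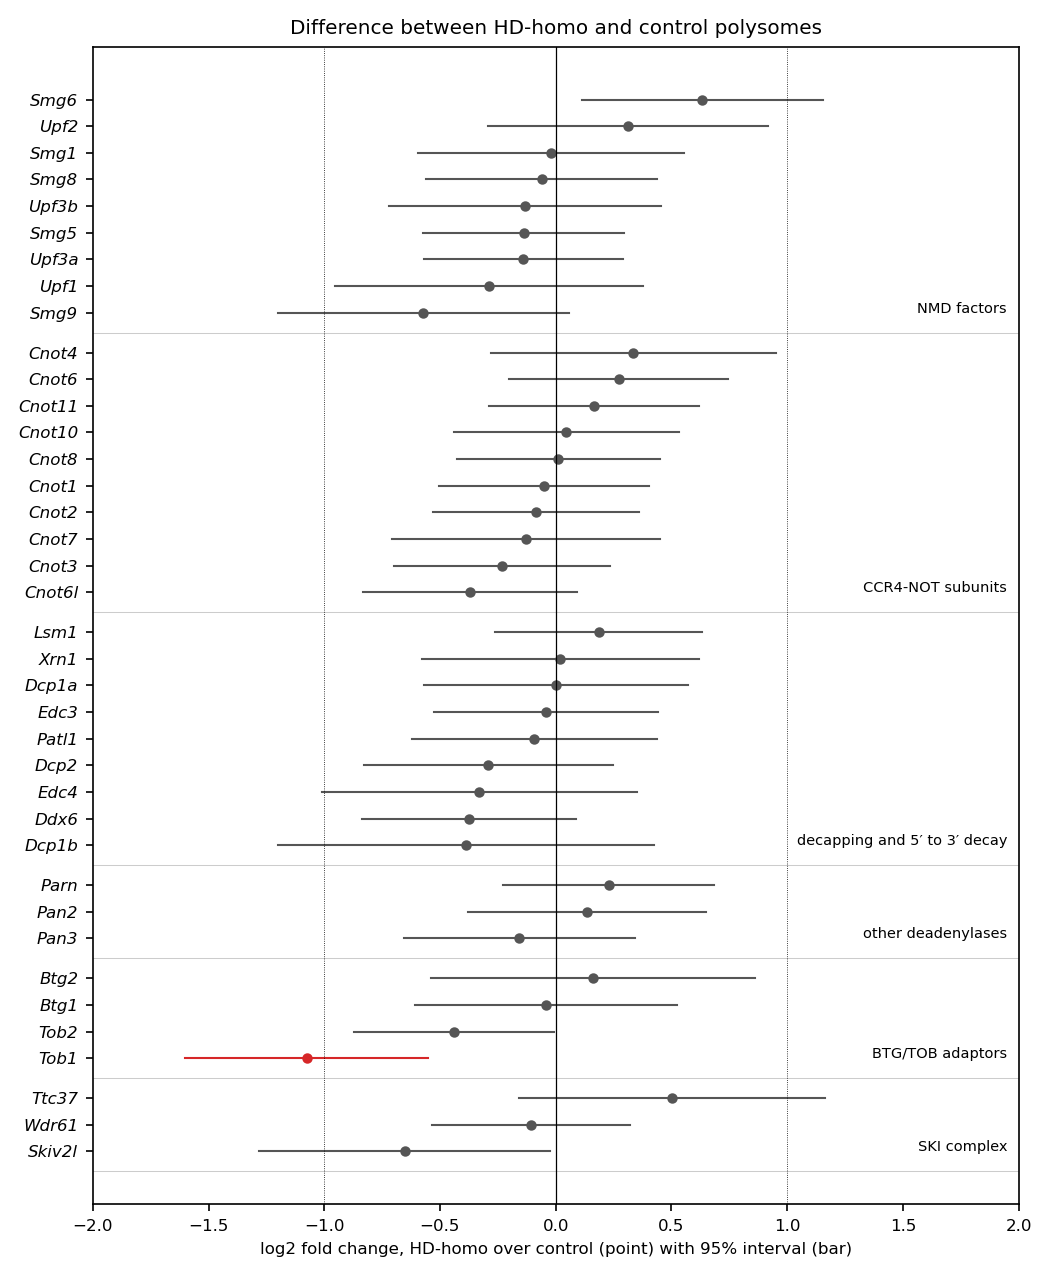
Log2 fold change of HD-homo over control polysomes (horizontal axis, point) with its 95% interval from edgeR (bar) for the 38 decay genes, grouped by role, n = 2 libraries per group. Tob1, in red, is the called gene at -1.08, and the dotted lines mark a 2-fold change in either direction.

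The BTG/TOB family held the called gene. These proteins carry an antiproliferative domain that binds the CAF1-type deadenylases CNOT7 and CNOT8, and TOB1 and TOB2 also bind the cytoplasmic poly(A)-binding protein, so that they bring CCR4-NOT to a poly(A) tail. Tob1 (ENSMUSG00000037573, chr11:94211454-94215495 on the plus strand of GRCm38) was at 44.8 and 34.5 CPM in control and at 20.5 and 17.2 CPM in HD-homo. Both HD-homo libraries lay below both control libraries. Tob1 was 2.11-fold lower in HD-homo (log2 fold change -1.08, standard error 0.24, 95% interval -1.60 to -0.55, adjusted p = 0.00516, edgeR). It stayed called under all 12 alternatives, including those that left out 1 library each, with log2 fold changes from -1.26 to -0.87 and adjusted p from 1.07e-07 to 0.0341.

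Tob2, its closest paralog (ENSMUSG00000048546, chr15:81848272-81858796, minus strand), was at 111 and 114 CPM in control and at 78.0 and 87.8 CPM in HD-homo. The groups did not overlap here either, but Tob2 did not pass the test (log2 fold change -0.44, standard error 0.20, adjusted p = 0.157, edgeR). With the replicate number as a block in the fit, Tob2 was called lower (adjusted p = 0.0196, edgeR). Btg1 (446, 264, 398 and 292 CPM) had a log2 fold change of -0.04 and a 95% interval of -0.61 to 0.53. Btg2, a p53-responsive member of the family, was at 52.9, 31.5, 63.0 and 31.3 CPM, with a log2 fold change of 0.16 and an interval of -0.54 to 0.86. For Btg1 and Btg2 the 2 libraries of a group lay farther apart than the groups did. Per kilobase of exon, Btg1 was the most abundant of the 4 in both lines (means of 67.3 and 65.4 CPM per kb). Tob1 was second in control (17.3 CPM per kb) and last in HD-homo (8.22 CPM per kb), while Tob2 was at 16.9 and 12.4 and Btg2 at 15.4 and 17.2. The control means of Tob1, Tob2 and Btg2 lay closer together than the libraries of Btg2, so their order in control is not resolved.

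As a share of the pair, per kilobase of exon, Tob1 made up 54.1% and 46.8% of Tob1 plus Tob2 in control and 43.3% and 36.3% in HD-homo. This share does not depend on how the libraries were scaled. The ranges did not overlap, although the lower control value and the higher HD-homo value were close. The promoter of Tob1 is shown because it is the called gene. It is the 250 bases before the RefSeq start in GRCm38.p6, 5′ to 3′ on the plus strand, at chr11:94211204-94211453. Capitals mark the TATA box letters TATAAA, the CCAAT box letters CCAAT and the GC box letters GGGCGG on either strand.
Tob1: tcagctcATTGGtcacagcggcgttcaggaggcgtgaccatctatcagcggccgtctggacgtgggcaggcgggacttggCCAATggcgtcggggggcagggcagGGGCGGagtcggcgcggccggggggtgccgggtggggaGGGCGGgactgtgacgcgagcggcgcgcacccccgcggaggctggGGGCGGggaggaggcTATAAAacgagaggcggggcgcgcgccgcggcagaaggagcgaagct
Tob1 held 1 TATA box, beginning 47 bases before the start, 2 CCAAT boxes and 3 GC boxes. In 32851 RefSeq promoters of the same length, a TATA box was found in 12.4%, a CCAAT box in 33.8% and a GC box in 32.7%. No pair of these motifs overlaps in the letters marked, and a match is a description of the sequence alone.

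**Figure D2:**
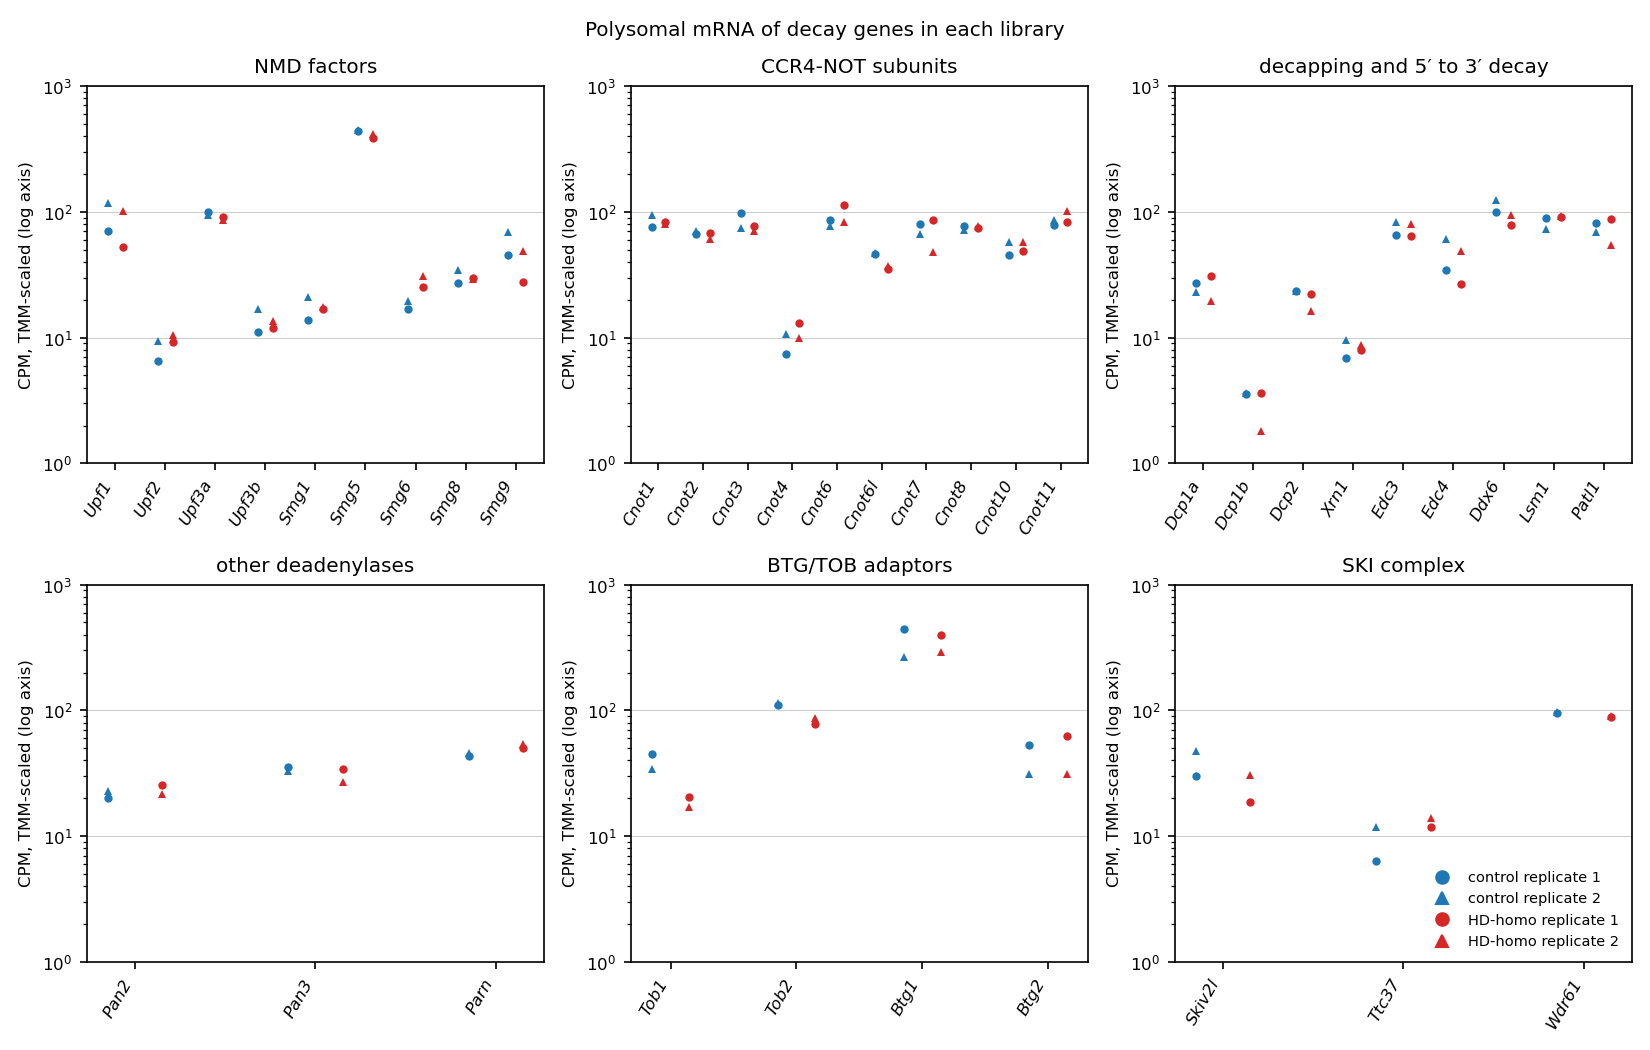
Level of each of the 38 decay genes in each library in CPM after TMM scaling (vertical log axis), by role, with control in blue and HD-homo in red, circles for replicate 1 and triangles for replicate 2. The 2 Tob1 libraries of HD-homo (20.5 and 17.2 CPM) lie below those of control (44.8 and 34.5 CPM), and most other genes overlap.

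Among the NMD factors 0 of 9 were called with edgeR, 1 was higher at an unadjusted p under 0.05, and DESeq2 and limma-voom called 0. In all genes tested, edgeR called 10.4% higher and 10.9% lower, and 14.8% and 15.9% had an unadjusted p under 0.05. A list of 9 genes is short beside such shares. Smg6, the endonuclease that cuts NMD targets near the stop codon, was at 16.8 and 19.4 CPM in control and at 25.1 and 31.0 CPM in HD-homo, higher in each library of the mutant line than in any of control. Its log2 fold change of 0.63 (standard error 0.24, 95% interval 0.11 to 1.15) missed the threshold at an adjusted p of 0.0851 (edgeR). Smg9, which with SMG8 holds the SMG1 kinase in check, was at 45.1, 68.6, 27.5 and 48.9 CPM. The groups overlapped for Smg9, and its log2 fold change of -0.57 (standard error 0.29) did not pass (adjusted p = 0.211, edgeR). The helicase gene Upf1 was at 69.9, 117, 52.2 and 101 CPM. The gap between libraries of 1 group was wider than the difference between the groups (log2 fold change -0.29, standard error 0.31, adjusted p = 0.593, edgeR).

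Leaving out a library moved Smg9 and Upf1 past the threshold. Without control replicate 1, Smg9 was called lower at -0.84 (adjusted p = 0.0361, edgeR). Without HD-homo replicate 2, Smg9 was called lower at -1.05 (adjusted p = 0.0151) and Upf1 at -0.84 (adjusted p = 0.0457, edgeR). Over all 12 alternatives the adjusted p ranged from 0.00234 to 0.753 for Smg9 and from 0.0457 to 0.877 for Upf1 (edgeR, DESeq2 or limma-voom). With the replicate number as a block in the fit, Smg6 was called higher and Smg9 lower (adjusted p of 0.00503 and 0.00234, edgeR). The labels do not say that libraries of 1 number share a batch. The other 6 NMD factors were not called under any of the 12 alternatives. Smg5, which binds phosphorylated UPF1, was the most abundant of the 9 per kilobase, at 63.8 CPM per kb in control and 58.0 in HD-homo. The Smg1 kinase was the lowest, at 0.727 and 0.717 CPM per kb. The log2 fold changes of Upf2, Upf3a, Upf3b, Smg1, Smg5 and Smg8 lay between -0.14 and 0.31.

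The CCR4-NOT complex showed 0 of 10 subunits called and 0 with an unadjusted p under 0.05 (edgeR), and DESeq2 and limma-voom called 0. The shares of all genes tested were 10.4% called higher and 10.9% lower, and 14.8% and 15.9% at the unadjusted level (edgeR). A list of 10 genes is short beside such shares. All 10 subunits had a 95% interval within a 2-fold change, and their log2 fold changes ran from -0.37 (Cnot6l) to 0.34 (Cnot4). The scaffold Cnot1 was at 75.1, 94.2, 83.1 and 80.5 CPM, with a log2 fold change of -0.05 and an interval of -0.50 to 0.40. The catalytic subunits come in paralog pairs, of which a complex holds 1 member each. For the CAF1-type pair, Cnot8 was at 77.5, 72.1, 74.3 and 76.5 CPM (log2 fold change 0.01) and Cnot7 at 80.0, 66.1, 86.1 and 47.5 CPM (-0.13). For the CCR4-type pair, Cnot6l was at 46.0 and 47.3 CPM in control and at 34.9 and 37.3 CPM in HD-homo. Its HD-homo libraries lay below its control libraries, and it did not pass (log2 fold change -0.37, standard error 0.21, adjusted p = 0.281, edgeR). Cnot6 overlapped between the groups at 85.6, 76.5, 112 and 83.3 CPM (log2 fold change 0.27, adjusted p = 0.460, edgeR).

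Cnot6 made up 74.4% and 71.6% of the CCR4-type pair per kilobase of exon in control and 83.4% and 77.7% in HD-homo. These shares did not overlap between the lines, and the pair was singled out after its values were seen. For Cnot7 in the CAF1-type pair the shares overlapped, at 31.8% and 29.3% in control and 34.4% and 22.0% in HD-homo. Per kilobase, Cnot8 was the highest subunit (28.4 CPM per kb in control and 28.6 in HD-homo) and Cnot4, an E3 ubiquitin ligase, the lowest (0.927 and 1.17). The order of the subunits by mean level was the same in both lines except that Cnot6 and Cnot7 exchanged places. Of the other deadenylases, edgeR called 0 of Pan2, Pan3 and Parn, against 10.4% higher and 10.9% lower of all genes tested. At an unadjusted p under 0.05 there were 0 (edgeR), against 14.8% higher and 15.9% lower of all genes tested. DESeq2 and limma-voom called 0. Parn, which trims poly(A) tails and noncoding RNAs, was at 43.5 and 45.7 CPM in control and at 50.3 and 54.3 CPM in HD-homo. The groups did not overlap, at a log2 fold change of 0.23 and an interval of -0.23 to 0.68.

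In decapping and 5′ to 3′ decay 0 of 9 genes were called and 0 had an unadjusted p under 0.05 (edgeR), with 0 called by DESeq2 and limma-voom. Of all genes tested, 10.4% were called higher and 10.9% lower, and 14.8% and 15.9% passed unadjusted (edgeR). The catalytic subunit gene Dcp2 was at 23.5, 23.6, 22.4 and 16.1 CPM, a log2 fold change of -0.29. The exonuclease gene Xrn1 was at 6.93, 9.52, 8.01 and 8.69 CPM, a log2 fold change of 0.02 with an interval of -0.58 to 0.62. Ddx6, a helicase that joins CCR4-NOT to decapping and to translational repression, was at 99.1 and 124 CPM in control and at 78.0 and 94.2 CPM in HD-homo. All HD-homo values of Ddx6 lay below those of control, by a margin smaller than the gaps within each group, and it did not pass (log2 fold change -0.37, standard error 0.21, adjusted p = 0.275, edgeR). Dcp1b was the gene with the fewest counts of all 38, at 50, 55, 47 and 25, and its interval of -1.20 to 0.42 was the widest. Lsm1, a subunit of the ring that binds deadenylated 3′ ends, was the most abundant of this role per kilobase (26.1 CPM per kb in control and 29.7 in HD-homo), and Xrn1 the lowest (0.443 and 0.449).

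The SKI complex, a helicase that threads mRNA into the cytoplasmic exosome, is known for acting on stalled ribosomes. With edgeR 0 of its 3 subunits were called, against 10.4% higher and 10.9% lower of all genes tested. DESeq2 and limma-voom also called 0. At an unadjusted p under 0.05, 1 subunit was lower (edgeR), against 15.9% of all genes tested. The helicase gene Skiv2l was at 29.9, 47.4, 18.7 and 30.5 CPM. The groups overlapped by a small margin, since HD-homo replicate 2 was just above control replicate 1. The log2 fold change of -0.65 (standard error 0.29) did not pass (adjusted p = 0.148, edgeR). With the replicate number as a block in the fit, Skiv2l was called lower (adjusted p = 0.0016, edgeR). The scaffold gene Ttc37 went the other way at 6.37, 11.8, 11.7 and 13.9 CPM, 0.50 ± 0.31 on the log2 scale (standard error; adjusted p = 0.310, edgeR), also with overlapping groups. Wdr61, shared with the PAF1 transcription complex, was at 95.2, 97.6, 89.2 and 89.8 CPM. The larger of its replicate gaps was the smallest among the 38 genes, and its log2 fold change was -0.11. Leaving out a library moved Skiv2l and Ttc37 past the threshold. Skiv2l was called lower without control replicate 1 (-0.94, adjusted p = 0.0162) and without HD-homo replicate 2 (-1.05, adjusted p = 0.0209, edgeR). Ttc37 was called higher without control replicate 2 (1.01, adjusted p = 0.0376, edgeR). Over all 12 alternatives the adjusted p ranged from 0.0016 to 0.688 for Skiv2l and from 0.0376 to 0.871 for Ttc37 (edgeR, DESeq2 or limma-voom). Wdr61 shares a long stretch of exon with Dnaja4 on the opposite strand, as Edc3 does with Clk3, and shorter stretches are shared by Skiv2l with Dxo, Smg6 with Srr, Upf1 with Cers1, Cnot7 with Zdhhc2 and Cnot3 with Leng1. No source used here says whether reads were counted by strand, so the counts of these genes are less certain. Tob1 overlaps no annotated exon of another gene.

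Counted over the 38 genes, 3 (7.89%) had their lowest HD-homo value above their highest control value, against 28.6% of all genes tested. The reverse held for 8 (21.1%), against 28.5% of all genes tested. The 3 were Smg6, Parn and Lsm1. The 8 were Tob1, Tob2, Cnot6l, Upf3a, Smg5, Dcp2, Ddx6 and Wdr61, and 27 genes overlapped. For 29 of the 38 genes the gap between 2 libraries of 1 group was larger than the difference between the groups. That count was not made over all genes tested, so it is not a trait of the 38. Their median gaps were 0.30 on the log2 scale in control and 0.25 in HD-homo. Over 12651 tested genes with such a gap in both groups the medians were 0.26 and 0.29. The widest gap among the 38 was that of Btg2 in HD-homo, at 1.01 on the log2 scale. The replicate 1 minus replicate 2 differences of the 2 lines were correlated, at 0.72 over the 38 and 0.39 over all genes tested. If libraries of 1 number belong together, which the labels do not say, the gaps are not noise alone. The standard errors of the log2 fold changes ran from 0.20 to 0.38 with a median of 0.24, so that a small change in a single gene was not resolved with 2 libraries per group. In simulated data, 50 genes each were changed 1.5-, 2-, 3- and 4-fold among 12961. There the edgeR test called 58% of genes changed 2-fold and 12% of those changed 1.5-fold. In the real data 21.2% of all genes were called, so the adjusted threshold was stricter in the simulation. These shares may therefore be too low for the real data. A gene that was not called may therefore still differ.

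**Figure D3:**
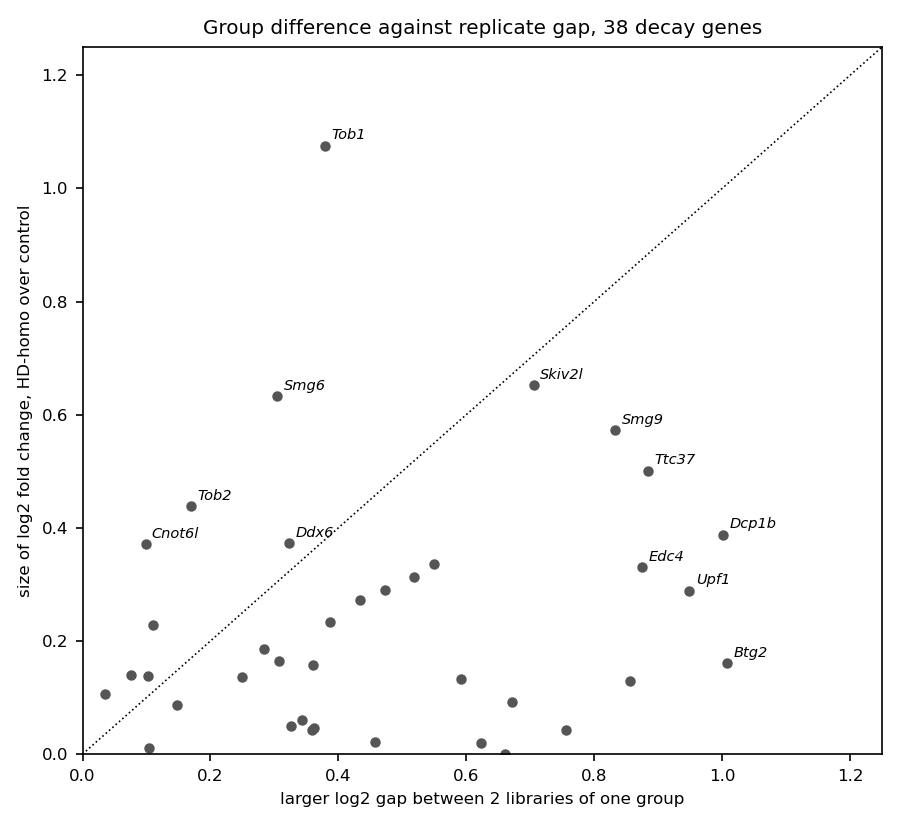
Size of the log2 fold change between HD-homo and control (vertical axis) against the larger log2 gap between the 2 libraries of one group (horizontal axis) for the 38 decay genes, with the dotted line where both are equal. The 29 genes under the line had a larger replicate gap than difference between lines, a count not made over all genes, and Tob1 stands highest at 1.08. The replicate differences of the 2 lines were correlated (0.72 over the 38), and the labels do not say whether libraries of 1 number belong together.

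A further 84 genes came from 6 lists, and 83 of them were tested. The lists hold genes of mRNA decay, except that 1 holds 10 NMD substrate RNAs, which are targets of decay. Together they are called the further decay genes. Of the 83, 9 were called higher and 3 lower, or 14.5% in all, against 21.2% of all genes tested (edgeR). The NMD substrate list gave 4 of the higher and 1 of the lower calls. The RNA exosome receives RNA from the SKI complex. Of the 12 tested genes listed with it, edgeR called 0, against 10.4% higher and 10.9% lower of all genes tested. DESeq2 and limma-voom called 0. At an unadjusted p under 0.05, 1 of these genes was higher (edgeR), against 14.8% of all genes tested. The higher gene was the cap protein gene Exosc3, at 63.5, 68.2, 90.4 and 97.3 CPM (log2 fold change 0.51, adjusted p = 0.101, edgeR). Exosc6, at 0 counts in every library, was the gene not tested. The 14 other decapping and decay genes had 0 calls and 0 with an unadjusted p under 0.05 (edgeR), and DESeq2 and limma-voom called 0. The shares of all genes tested were 10.4% called higher and 10.9% lower, and 14.8% and 15.9% unadjusted (edgeR).

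Among 16 other NMD and exon junction genes, 1 was called higher and 1 lower, against 10.4% and 10.9% of all genes tested. Dhx34, an RNA helicase that acts on UPF1, was at 28.0 and 31.6 CPM in control and at 10.2 and 13.7 CPM in HD-homo. It was 2.50-fold lower (log2 fold change -1.32, standard error 0.25, adjusted p = 0.00158, edgeR), with groups far apart. Ncbp2, the small subunit of the nuclear cap-binding complex, was at 81.1, 62.3, 116 and 108 CPM. Its call was close to the threshold (log2 fold change 0.64, adjusted p = 0.0479, edgeR) and held under 6 of the 12 alternatives. It was lost, among others, with DESeq2 (adjusted p = 0.0534) and without control replicate 2, HD-homo replicate 1 or HD-homo replicate 2 (adjusted p of 0.408, 0.126 and 0.0632, edgeR).

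Of 22 genes of RNA-binding proteins that bring mRNAs to the decay machinery, 2 were called higher and 1 lower. The shares of all genes tested were 10.4% and 10.9%. Zfp36l1, which binds AU-rich elements in 3′ ends, was at 59.0 and 64.9 CPM in control and at 241 and 148 CPM in HD-homo, and its log2 fold change was 1.65 ± 0.25 (standard error; adjusted p = 2.30e-04, edgeR). Khsrp, a KH-domain protein of AU-rich element decay, was at 167 and 186 CPM in control and at 88.9 and 101 CPM in HD-homo, for a difference of -0.90 ± 0.20 on the log2 scale (adjusted p = 0.00503, edgeR). Neither overlapped between the lines. Nanos1, a translational repressor that binds CCR4-NOT, was at 14.5, 10.8, 24.4 and 21.0 CPM (log2 fold change 0.85, adjusted p = 0.0297, edgeR). Its call was lost in the fits without control replicate 2 and without HD-homo replicate 1 (adjusted p of 0.223 and 0.0977, edgeR).

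Of 10 genes listed under other deadenylation and poly(A) binding, 2 were called higher and 0 lower, against 10.4% and 10.9% of all genes tested. Whether these 2 act in deadenylation was not tested. Noct, a CCR4-family gene under circadian control, was at 110, 87.3, 295 and 144 CPM (log2 fold change 1.15, adjusted p = 0.0109, edgeR). Without HD-homo replicate 1, its highest library, the log2 fold change was 0.56 (adjusted p = 0.137, edgeR). Angel1, another CCR4-family gene, was at 1.20, 1.64, 3.11 and 3.72 CPM (log2 fold change 1.26, adjusted p = 0.0256, edgeR). It lost its call with DESeq2 (adjusted p = 0.135), without control replicate 1 (adjusted p = 0.162) and without HD-homo replicate 2 (adjusted p = 0.119, edgeR). Over all 12 alternatives the adjusted p ranged from 0.000244 to 0.408 for Ncbp2, from 0.000216 to 0.223 for Nanos1, from 1.34e-09 to 0.137 for Noct and from 0.00154 to 0.162 for Angel1 (edgeR, DESeq2 or limma-voom).

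RNAs known from other mammalian cells as NMD substrates were looked at beside the factors. Of 10, 4 were called higher and 1 lower, against 10.4% higher and 10.9% lower of all genes tested (edgeR). Gadd45b was at 124 and 153 CPM in control and at 475 and 357 CPM in HD-homo, for a difference of 1.59 ± 0.23 on the log2 scale (standard error; adjusted p = 1.52e-04, edgeR). Atf3 was at 58.7, 74.2, 115 and 125 CPM (log2 fold change 0.86, adjusted p = 0.00948, edgeR), and its call was lost without control replicate 1 (adjusted p = 0.125). Gadd45b, Atf3 and Ddit3 are also stress-response genes under transcriptional control. Ddit3 was at 79.1, 74.0, 137 and 103 CPM (log2 fold change 0.65, adjusted p = 0.0461, edgeR), and of the 4 leave-outs it was called only without HD-homo replicate 2. DESeq2 and limma-voom did not call Ddit3.

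Snhg12 and Gas5, noncoding snoRNA hosts whose spliced RNAs are NMD substrates, went in opposite directions. Snhg12 was at 37.6, 33.1, 71.1 and 55.9 CPM (log2 fold change 0.84, adjusted p = 0.0149, edgeR) and lost its call without control replicate 2 or HD-homo replicate 1 (adjusted p of 0.104 and 0.107, edgeR). Gas5 was at 128, 107, 74.8 and 56.7 CPM (log2 fold change -0.84, adjusted p = 0.0137, edgeR) and lost its call without control replicate 1 or HD-homo replicate 2 (adjusted p of 0.0946 and 0.0948, edgeR). Over all 12 alternatives the adjusted p ranged from 6.05e-07 to 0.125 for Atf3, from 6.81e-06 to 0.107 for Snhg12 and from 1.05e-06 to 0.0948 for Gas5 (edgeR, DESeq2 or limma-voom). Snhg1, another such host, overlapped between the lines at 208, 157, 225 and 149 CPM. Atf4, whose mRNA carries upstream reading frames, was at 1653, 1451, 1856 and 1859 CPM and did not pass (log2 fold change 0.26, adjusted p = 0.478, edgeR).

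**Figure D4:**
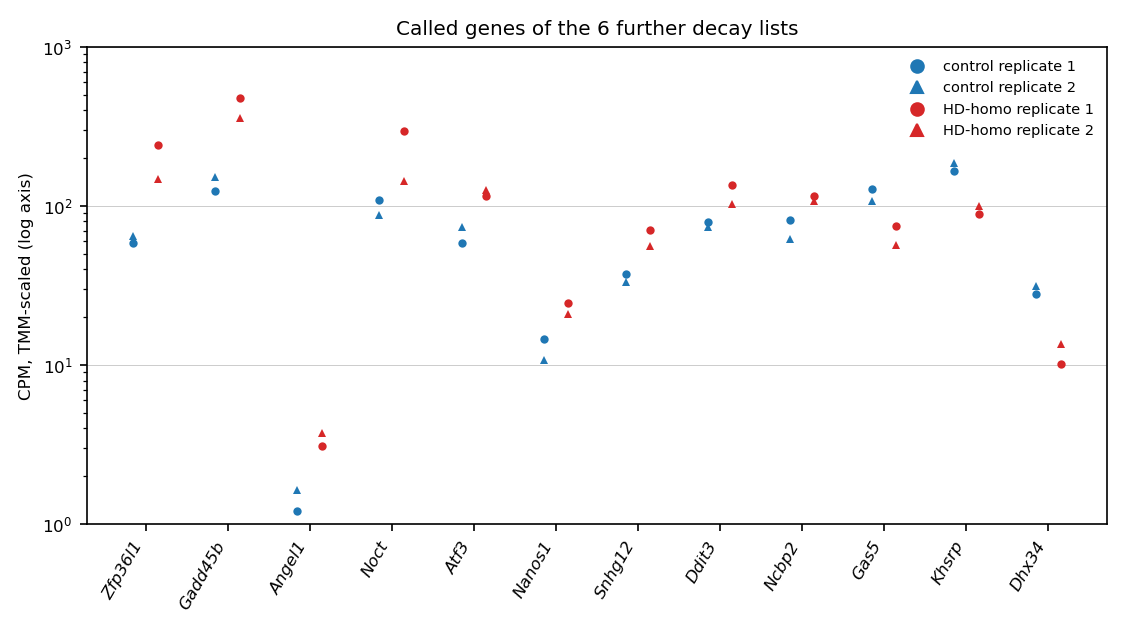
Level in each library in CPM after TMM scaling (vertical log axis) of the 12 called genes of the 6 further lists, NMD substrates included. Genes are in order of log2 fold change, 9 higher and 3 lower in HD-homo, with control in blue and HD-homo in red. Zfp36l1 (59.0 and 64.9 against 241 and 148 CPM) and Dhx34 (28.0 and 31.6 against 10.2 and 13.7 CPM) are the first and the last.

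The lines also differed in cell type markers. The 8 fibroblast and mesenchymal markers summed to 925 and 1873 CPM in control and to 5319 and 5206 CPM in HD-homo. Most of each sum was Col1a1, at 687, 1439, 3702 and 3601 CPM. Of 6 tested, 4 were called higher (Col1a1, Col1a2, Dcn and Pdgfra), against 10.4% of all genes tested. Col3a1 and Pdgfrb were not called (log2 fold changes of 0.60 and 0.01). Lum (0, 0, 1 and 3 counts) and Thy1 (0, 1, 0 and 0 counts) were nearly absent and not tested. The 10 neural progenitor and astrocyte markers summed to 4863 and 6374 CPM in control and to 3046 and 3761 CPM in HD-homo. Of 7 tested, 4 were called lower (Nes, Sox2, Pax6 and Notch1), against 10.9% of all genes tested. Nearly all of that sum was Vim, also a mesenchymal gene, at 4630, 6077, 3007 and 3729 CPM, which was not called (adjusted p = 0.0750, edgeR). Slc1a3 and Fabp7 had log2 fold changes of 0.93 and 0.83 and were not called. The astrocyte markers Gfap, Aqp4 and Aldh1l1 had under 10 counts in every library and were not tested. Pan-neuronal markers summed to between 102 and 132 CPM in control and between 54.3 and 67.1 CPM in HD-homo, with Rbfox3, Snap25, Syt1 and Dcx at 0 in all 4 libraries. Of the 3 tested, Stmn2 was called lower, at 63.9, 61.3, 10.5 and 5.70 CPM, against 10.9% of all genes tested. Tubb3 and Map2 were not called (log2 fold changes of 0.24 and -0.25). Of 8 endothelial markers 1 was tested, Flt1, which was called lower (log2 fold change -2.07, adjusted p = 4.00e-04, edgeR). Of 8 microglia and macrophage markers 2 were tested. Csf1r was called higher (6, 8, 23 and 18 counts), and Tmem119 was not called (log2 fold change -0.66, adjusted p = 0.0511, edgeR). Whether these differences have a part in the lower level of Tob1 was not tested.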

How the data were processed

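Polysomal mRNA after a harringtonine run-off was sequenced in 2 control and 2 HD-homo libraries. Per the submitters' processing notes, reads were handled with cutadapt, Bowtie 1.1.2, RSEM 1.3.0 and DESeq2 on GRCm38.p5. The authors deposited whole-number counts per gene and library, which were used as deposited; their normalized table was not used. No source used here gives RSEM's strand setting or says whether its estimates were rounded, so overlapping genes may share reads. The notes name poly(A) selection and a directional kit.

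Of 53465 genes, 12961 passed filterByExpr in edgeR 4.0.16 (R 4.3.3) and entered its quasi-likelihood test, with HD-homo set against control and p-values adjusted over all of them. TMM factors were 1.002, 0.985, 1.040 and 0.974. The common dispersion was 0.0324. Library totals were 14122706 and 15472808 for control and 12372090 and 14074182 for HD-homo. Replicates differed beyond sampling noise (chi-square per degree of freedom of 30.6 in control and 32.0 in HD-homo). Levels per kilobase used the union of exons in the GENCODE annotation of GRCm38, which also gave gene positions. The promoter came from RefSeq GRCm38.p6.

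The members and gene lists were chosen with earlier results of these data known. Values in every library were given for called members, members called under an alternative, and their paralogs or partners, and for up to 4 lowest-p genes of each further list; other genes named were chosen after their values were seen. Alternatives were DESeq2 size factors, upper-quartile factors or library totals for scaling, other filters, DESeq2 1.42.0, limma-voom (limma 3.58.1), the replicate number as a block, and leaving out each library. The fits were tested on simulated data.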

Additional observations from a re-analysis of the deposited data

How the results depend on the processing

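Tob1 was called lower under all 12 alternatives, and no called gene changed its direction. The median log2 fold change of the 38 decay genes ranged from -0.12 to -0.03. Requiring at least 10 counts in every library left 815 genes called higher and 883 lower in the whole table, with 11485 genes tested, and kept 0 and 1 of the 38; the cause was not tested. With the replicate number as a block, 2126 genes were called higher and 2350 lower, 1 of the 38 was higher (Smg6) and 4 lower (Tob1, Tob2, Smg9 and Skiv2l), and 13 further decay genes were higher and 7 lower. The adjusted p-values under this replicate block were 0.00503 for Smg6, 0.0196 for Tob2, 0.00234 for Smg9 and 0.00160 for Skiv2l (edgeR). The libraries share only a number: the labels give no common batch, and with 2 pairs the correlation of the replicate 1 minus replicate 2 differences, 0.39 over 12961 genes and 0.72 over the 38, is a hint from the data. Leaving out 1 library at a time gave 1 to 4 of the 38 lower, 0 to 1 higher and 4 to 7 further decay genes higher, and an arm of 1 library was then assumed to vary like the other group. Between 0 and 10 of the uncalled decay genes changed sign under an alternative, most without control replicate 2. With 2 libraries per group, the standard errors, at least 0.20 on the log2 scale for each of the 38, limit what can be seen.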
